A study of Mus musculus with 76 samples.

Results

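Collagen genes were described here as the mouse protein-coding genes whose symbol is Col, a number, the letter a and a number. The gene annotation (GENCODE) held 44 of them among the 21631 protein-coding genes of the count files, and all 44 were in the files. RNA-seq read counts came from 16 samples of developing diencephalon, the part of the embryonic forebrain that forms thalamus and hypothalamus, collected at the embryonic days labelled E11.5 and E17.5. There were 4 samples of each genotype at each stage. Wild type embryos were C57BL/6J. The hs754-humanized embryos were homozygous for a human sequence holding the enhancer hs754 in place of its mouse orthologue, on the same C57BL/6J background, in a line bred from CRISPR-edited founders. Each sample pooled the tissue of 6 embryos at E11.5 or 3 embryos at E17.5 from 1 litter, so the p-values below measure the spread between pooled litters. The same tissue had been used for ChIP-seq of the histone modifications H3K4me3, H3K27ac and H3K27me3 at both stages, and of the factor CTCF at E17.5.

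Collagens are secreted or membrane-bound proteins built from chains that wind around each other in a triple helix. Fibrillar collagens (types I, II, III, V, XI, XXIV and XXVII) assemble into the ropes of connective tissue, whereas type IV collagens form the sheet-like network of basement membranes, to which types XV and XVIII attach. In embryonic brain, basement membranes surround the blood vessels and lie under the meninges, the connective tissue covering of the brain, and fibrillar collagens are made mainly by mesenchymal cells. By these groups, 11 members were fibrillar and 8 belonged to basement membranes. The other 25 comprised fibril-associated collagens (the FACIT group), beaded filament collagens (type VI), transmembrane collagens, short chain collagens, the anchoring fibril gene Col7a1, and Col26a1 and Col28a1.

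The promoter sequences of 6 members are shown because they span the patterns described below: promoters dense or poor in CpG dinucleotides, genes lower or higher at E17.5, and promoters with many, few or no marked peaks. Each line gives the 200 bases just upstream of the start of the canonical transcript, read 5′ to 3′ in the direction of transcription from GRCm39, the build named mm39 in the files. Every CpG is in capitals. No annotated exon overlapped these windows. Col5a1 and Col1a1 encode fibrillar chains, and Col3a1 encodes the chain of type III fibrils. Col25a1 encodes a transmembrane collagen of neurons, Col8a1 a short chain collagen, and Col28a1 the chain of type XXVIII collagen.
Col5a1, chr2:27776197-27776396, plus strand: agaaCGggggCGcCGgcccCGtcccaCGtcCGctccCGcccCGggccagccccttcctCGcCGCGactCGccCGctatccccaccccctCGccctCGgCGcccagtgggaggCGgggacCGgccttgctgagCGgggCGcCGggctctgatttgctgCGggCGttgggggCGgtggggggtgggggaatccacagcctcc
Col1a1, chr11:94826850-94827049, plus strand: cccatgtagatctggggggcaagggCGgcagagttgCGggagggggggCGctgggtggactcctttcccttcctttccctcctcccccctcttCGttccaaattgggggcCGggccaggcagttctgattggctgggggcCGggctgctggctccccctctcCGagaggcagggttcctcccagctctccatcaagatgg
Col3a1, chr1:45350498-45350697, plus strand: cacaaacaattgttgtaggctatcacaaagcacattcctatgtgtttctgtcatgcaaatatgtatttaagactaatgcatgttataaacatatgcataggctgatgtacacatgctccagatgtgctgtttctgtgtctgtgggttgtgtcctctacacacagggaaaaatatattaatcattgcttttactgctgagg
Col25a1, chr3:129974340-129974539, plus strand: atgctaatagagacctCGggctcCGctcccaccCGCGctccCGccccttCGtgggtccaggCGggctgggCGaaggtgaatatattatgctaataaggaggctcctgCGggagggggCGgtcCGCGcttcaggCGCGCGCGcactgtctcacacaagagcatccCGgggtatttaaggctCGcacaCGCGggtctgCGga
Col8a1, chr16:57575101-57575300, minus strand: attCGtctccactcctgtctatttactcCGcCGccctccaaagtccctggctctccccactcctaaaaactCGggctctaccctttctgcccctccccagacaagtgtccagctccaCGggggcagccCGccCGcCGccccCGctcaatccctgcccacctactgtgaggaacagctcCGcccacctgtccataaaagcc
Col28a1, chr6:8192618-8192817, minus strand: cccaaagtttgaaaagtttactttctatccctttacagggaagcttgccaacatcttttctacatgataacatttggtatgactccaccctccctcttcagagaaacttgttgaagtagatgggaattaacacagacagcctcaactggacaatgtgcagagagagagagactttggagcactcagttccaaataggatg
The windows held 24 CpGs in Col5a1, 21 in Col25a1, 10 in Col8a1, 7 in Col1a1 and 0 in both Col3a1 and Col28a1.

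Between 16414369 and 24272569 reads per sample were counted on genes, and 48.1 to 58.4% of reads, unmapped ones included, were counted on none. The wild type E17.5 replicate 1 stood apart from the rest: its root mean square deviation from its group mean over genes was 0.812 on the log2 scale, against 0.263 to 0.450 in the other 15 libraries. Stage calls and genotype differences that change without it are therefore given both ways. Levels are given as TPM, transcript abundance scaled to a constant total per library, computed from the deposited counts with the summed exon length of each gene, so that genes of different length can be compared. Changes are log2 fold changes with standard errors (SE) from edgeR's quasi-likelihood test over all genes that passed its filter on low counts, called at a Benjamini-Hochberg adjusted p under 0.05.

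At E11.5, collagen RNA was led by type IV and fibrillar chains. Of all 21631 protein-coding genes, Col4a1 ranked 279 by mean level in wild type E11.5 and 661 at E17.5. Col4a1 encodes the α1 chain of the main basement membrane network and lies at chr8:11248423-11362826 on the minus strand. Its level was 419, 515, 432 and 492 TPM in the 4 wild type E11.5 samples and 306, 238, 172 and 177 TPM at E17.5. Every E17.5 sample was below every E11.5 sample, and replicate 1 was the highest of the later stage. Col3a1 (chr1:45350698-45395840, plus strand), the single chain of the fibrils that accompany type I collagen, ranked 317 at E11.5 and 1748 at E17.5. Col1a1, the major chain of type I fibrils (chr11:94827050-94843868, plus strand), ranked 462 and then 2616. At the other end of the range, 9 members had mean levels under 1 TPM in wild type E11.5, among them Col4a3, Col10a1, Col19a1 and Col28a1.

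**Figure D1:**
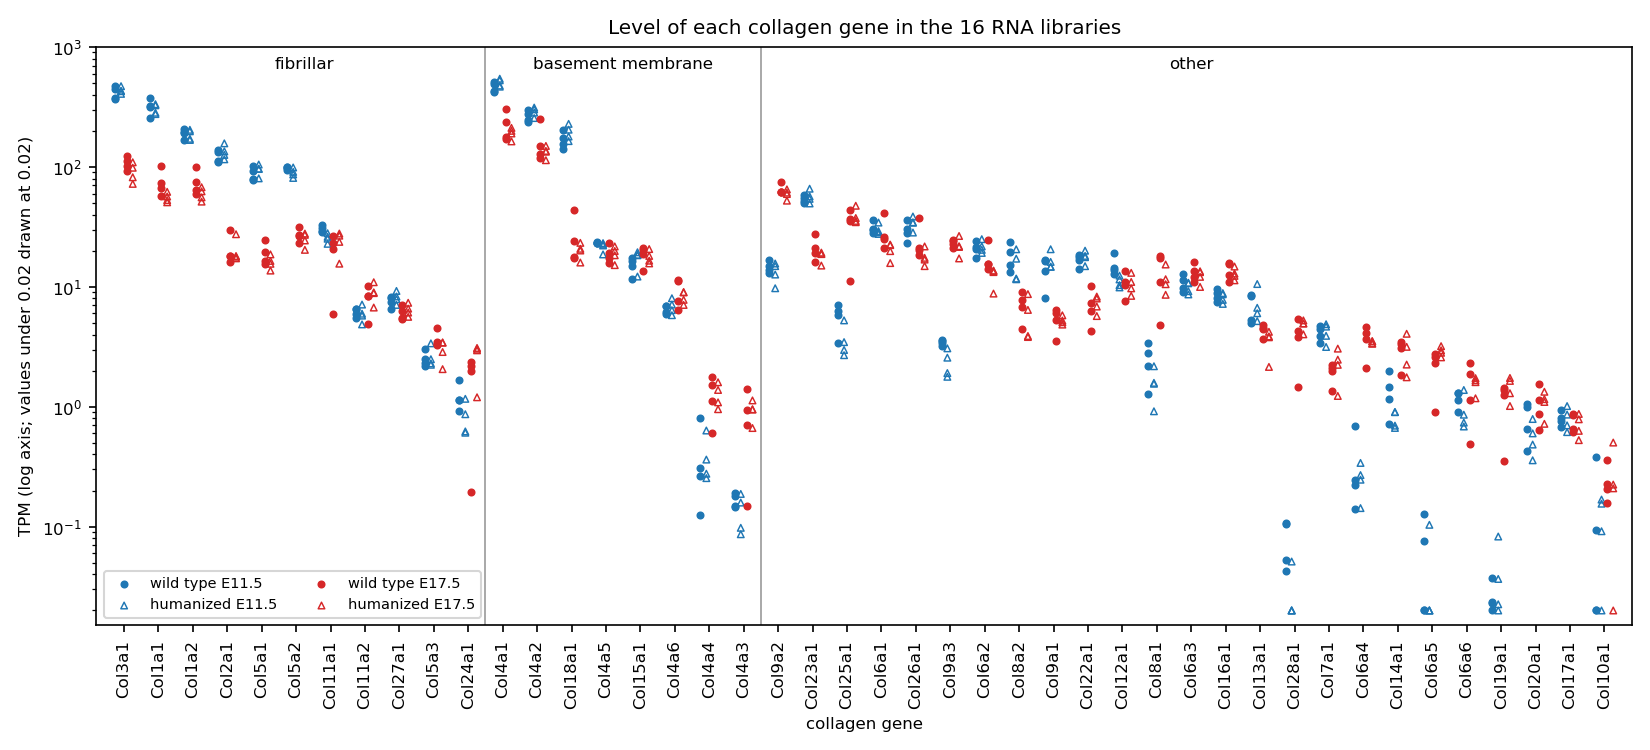
Level in TPM (log axis) of each of the 44 collagen genes in each of the 16 RNA samples, with 1 point per sample, blue for E11.5, red for E17.5, filled circles for wild type and open triangles for hs754-humanized samples; values under 0.02 are drawn at 0.02, and genes are grouped as fibrillar, basement membrane and other. The red points of Col1a1, Col1a2, Col2a1, Col3a1, Col5a1 and Col5a2 all lie below the blue ones, and those of Col28a1, Col19a1 and Col6a5 above them.

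Summed over all 44 genes, collagen RNA in wild type was at 2481 ± 249 TPM at E11.5 and at 1125 ± 194 TPM at E17.5 (SD, n = 4 each). In hs754-humanized samples it was 2573 ± 163 TPM at E11.5 and 980 ± 88.0 TPM at E17.5. Fibrillar genes carried most of the difference, at 1279 ± 130 TPM and then 362 ± 50.9 TPM in wild type. Basement membrane genes summed to 943 ± 102 TPM and then 459 ± 132 TPM. The remaining 25 genes did not share this course, with 260 ± 20 TPM at E11.5 and 304 ± 15.6 TPM at E17.5. As a share of collagen RNA, fibrillar genes made up 51.5% at E11.5 and 32.3% at E17.5 in wild type, basement membrane genes 38.0% and 40.3%, and the others 10.5% and 27.4%. The hs754-humanized shares were 50.0% and 31.7%, 40.1% and 39.9%, and 9.94% and 28.4%. These sums are descriptions over members and carry no test.

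**Figure D2:**
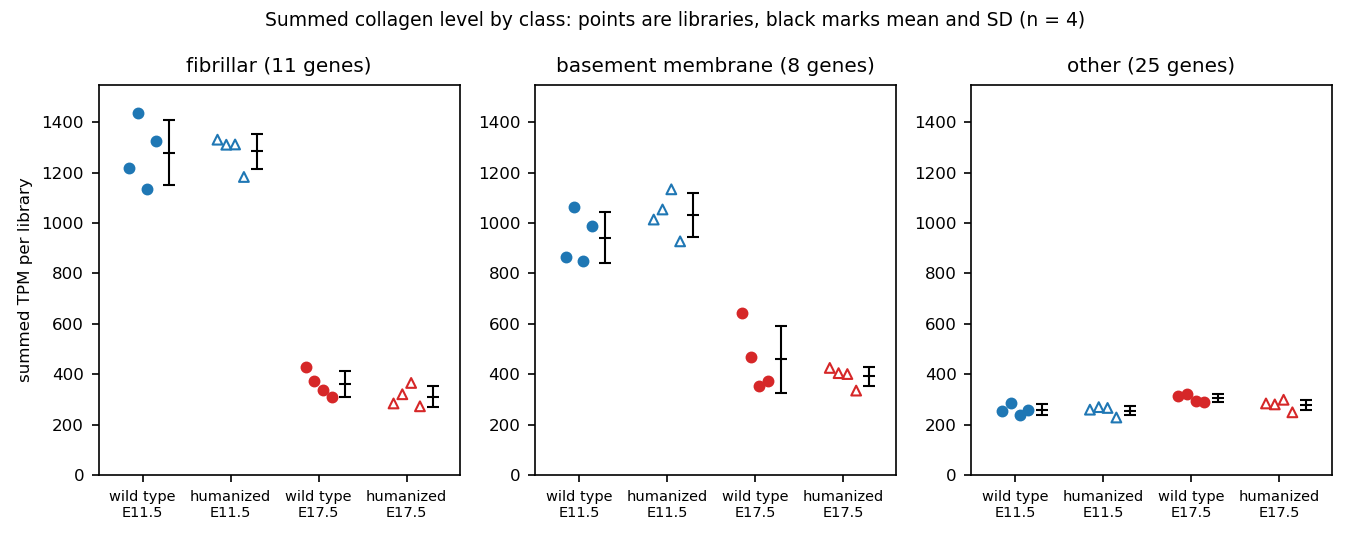
Summed level in TPM of the fibrillar (11 genes), basement membrane (8 genes) and other (25 genes) collagen classes, with 1 point per sample and black marks for the mean ± SD (n = 4) of each genotype and stage. The fibrillar mean was 1279 TPM in wild type E11.5 and 362 TPM in wild type E17.5, and the 4 group means of the other class lay between 256 and 304 TPM.

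The comparison of E17.5 with E11.5 in wild type asked which collagen genes changed over this stretch of forebrain development. Of 42 collagen genes tested, 12 were higher and 13 were lower at E17.5, and 17 were not called. Over all 18583 genes tested, 55.7% were called, 29.0% higher and 26.7% lower, so the share of collagen genes called was close to the background. The classes were unlike in their counts: 6 of 11 fibrillar genes were lower and 1 was higher, with a median log2 change of -1.25, whereas 10 of 24 tested genes of the other class were higher and 5 lower, with a median of 0.36. In the basement membrane class 1 of 7 tested genes was higher and 2 were lower, with a median of -0.24. The median over all genes tested was -0.01. By normalized counts, the samples of both stages did not overlap for 26 of the 42 collagen genes, 11 higher and 15 lower, where 50.5% of all genes did not overlap (25% higher and 25.5% lower). DESeq2 called 26 of 44 collagen genes, where it called 43.6% of 28168 genes. Its set held genes that edgeR's filter on low counts removed, so this background is unlike that of edgeR. In bulk tissue, fewer cells of a type and less RNA per cell cannot be told apart.

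Leaving out wild type E17.5 replicate 1 moved these counts. Without it, 72.3% of 19351 genes were called, and 16 collagen genes of 43 tested were higher and 20 lower. With any 1 sample left out, at most 6.97e+03 of all genes were called higher and 7.03e+03 lower. The fibrillar counts became 3 higher and 7 lower, those of basement membrane genes 3 and 3, and those of the other class 10 and 10. All calls made with that library stayed, and the genes that gained one were Col4a3, Col11a2, Col15a1 and Col24a1 as higher and Col4a2, Col6a1, Col6a2, Col11a1, Col12a1, Col13a1 and Col26a1 as lower. Col4a3 did not pass the filter on low counts with that library, so its call carries the limit given below. Col12a1 (fibril-associated), Col13a1 (transmembrane) and Col26a1 changed by -0.45, -0.56 and -0.17 with all samples and by -0.39, -0.71 and -0.58 without it (edgeR adjusted p = 0.0413, 0.0189 and 0.00643 without it).

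Among the fibrillar genes, the type I, II and III chains and 2 of the 3 type V chains fell. Col2a1, the chain of type II collagen, best known from cartilage, had levels of 110, 137, 112 and 132 TPM in the E11.5 samples and 30, 17.9, 18.0 and 15.97 TPM at E17.5. The groups did not overlap, with replicate 1 the highest of the later samples. Its log2 change was -2.48 ± 0.28 (SE, n = 4 per stage, edgeR adjusted p = 3.27e-05). Col5a1, a chain of the type V collagen that nucleates fibrils, was at 78.9, 102, 77.9 and 91.8 TPM at E11.5 and at 24.7, 19.5, 16.5 and 15.4 TPM at E17.5. All later samples were below all earlier ones, a log2 change of -2.12 ± 0.24 (edgeR adjusted p = 3.48e-05). Col1a1 was at 322, 375, 254 and 314 TPM and then at 102, 74.0, 67.1 and 57.0 TPM. Again the stages did not overlap, and the log2 change was -1.99 ± 0.26 (edgeR adjusted p = 9.06e-05). Its partner chain in type I collagen, Col1a2, changed by -1.25 ± 0.24 (edgeR adjusted p = 0.00113). Col3a1 was at 371, 472, 376 and 450 TPM and then at 124, 111, 101 and 92.4 TPM, with no overlap. Its log2 change was -1.88 ± 0.20 (edgeR adjusted p = 2.19e-05). Col5a2, the second chain of type V collagen, was at 99.9, 97.3, 99.0 and 94.6 TPM and then at 27.3, 31.6, 26.5 and 23.0 TPM. It was lower in every later sample, with a log2 change of -1.78 ± 0.17 (edgeR adjusted p = 9.18e-06).

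The other 5 fibrillar genes were not called lower. Col5a3, the third type V chain, was at 2.51, 2.30, 2.19 and 3.02 TPM at E11.5 and at 3.36, 4.49, 3.24 and 3.47 TPM at E17.5. The stages did not overlap, and Col5a3 was the one fibrillar gene called higher, by 0.60 ± 0.21 (edgeR adjusted p = 0.0332). Col11a1, a chain of type XI collagen, was at 28.5, 29.4, 33.1 and 30.8 TPM at E11.5. At E17.5 it was at 5.96 TPM in replicate 1 and at 20.8, 23.3 and 26.7 TPM in the others, and its log2 change of -0.64 was not called (edgeR adjusted p = 0.122). Without replicate 1 that change was -0.38 and was called (edgeR adjusted p = 0.0185). Col24a1, which encodes type XXIV collagen, was similarly low in replicate 1 alone, at 0.196 TPM against 2.00 to 2.35 TPM in the other 3. Its log2 change was 0.48 with all samples (edgeR adjusted p = 0.451) and 0.84 without replicate 1 (edgeR adjusted p = 0.00785). Col11a2 and Col27a1 were not called with all samples, at log2 changes of 0.42 and -0.27. Without replicate 1, Col11a2 was called higher, by 0.54 (edgeR adjusted p = 0.00641), and Col27a1 was still not called.

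In the basement membrane class the largest change was that of Col18a1 (chr10:76888012-77002390, minus strand), whose protein is cut to release endostatin. Its level was 154, 203, 141 and 175 TPM at E11.5 and 43.9, 24.3, 17.4 and 17.7 TPM at E17.5. The stages did not overlap, with replicate 1 highest at E17.5, and the log2 change was -2.59 ± 0.36 (edgeR adjusted p = 1.50e-04). Its relative Col15a1 was not called, at 0.33 ± 0.19 (edgeR adjusted p = 0.157), but without replicate 1 it was called higher, by 0.38 (edgeR adjusted p = 0.0498). In hs754-humanized samples it was not called, at -0.03.

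The type IV genes lie in 3 pairs that are transcribed away from each other. The canonical transcripts of Col4a1 and Col4a2 on chromosome 8 overlapped at their starts by 318 bases, those of Col4a3 and Col4a4 on chromosome 1 by 104 bases, and those of Col4a5 and Col4a6 on chromosome X lay 1281 bases apart. Col4a1 fell by 0.97 on the log2 scale (SE 0.25, edgeR adjusted p = 0.00747). Col4a2, the α2 chain that joins 2 α1 chains in the network, was at 247, 297, 236 and 278 TPM at E11.5 and at 251, 150, 120 and 127 TPM at E17.5. Replicate 1 alone lay within the E11.5 range, and the log2 change of -0.60 ± 0.29 was not called (edgeR adjusted p = 0.0998). Without that library it was -1.02 (edgeR adjusted p = 1.82e-05). Col4a4, an α chain of specialized basement membranes, was low at both stages, at 0.807, 0.308, 0.264 and 0.126 TPM and then at 0.609, 1.51, 1.11 and 1.78 TPM. The stages overlapped through 1 sample of each, and its log2 change was 1.78 ± 0.51 (edgeR adjusted p = 0.0122). Col4a3 did not pass the filter on low counts in wild type. Its 4 samples together had 24 reads at E11.5 and 113 at E17.5, a depth-scaled ratio of 4.38 (exact 95% interval 2.80 to 7.11, which covers counting error only). Without replicate 1, whose level lay within the E11.5 range, Col4a3 passed the filter. It was then called higher, by 2.54 (edgeR adjusted p = 3.81e-05). With so few E11.5 reads, it passed only through its other E17.5 samples. A call in the other direction was hardly possible, so this call adds no support to the read counts. Col4a5 and Col4a6 were not called, at log2 changes of -0.24 (edgeR adjusted p = 0.218) and 0.57 (edgeR adjusted p = 0.0668). The counts used here ignored strand, and 85.8% of Col4a3 reads and 89.8% of Col4a4 reads lay on the strand of the gene, against 96.2% over all genes. The change of Col4a4 was called under all 15 alternatives, at 1.45 to 2.43, among them counts of the strand of the gene alone.

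Among the other collagens, the fibril-associated group held both directions, with 5 of 9 genes higher and 2 lower. Type IX collagen, which decorates type II fibrils, has 3 chains, and these did not change alike. Col9a3 (chr2:180239583-180264063, plus strand) was at 3.62, 3.37, 3.53 and 3.22 TPM at E11.5 and at 20.9, 24.3, 24.6 and 22.8 TPM at E17.5. The stages were far apart relative to their spread, with a log2 change of 2.81 ± 0.17 (edgeR adjusted p = 7.89e-07). Col9a2 (chr4:120896582-120912523, plus strand) was at 16.8, 14.9, 12.9 and 13.8 TPM and then at 75.2, 62.0, 62.3 and 61.7 TPM. It too was higher in every later sample, by 2.24 ± 0.20 (edgeR adjusted p = 7.57e-06). Col9a1 went the other way, from 8.10, 16.4, 13.4 and 16.8 TPM to 3.53, 6.43, 5.24 and 6.03 TPM, a log2 change of -1.33 ± 0.26 (edgeR adjusted p = 0.00158). All E17.5 values of Col9a1 were below all E11.5 values. In Col9a3, 92.8% of reads lay on the strand of the gene, which overlaps Tcfl5 on the other strand.

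Genes that were near absent at E11.5 had the largest ratios. Col28a1 had 6 reads over the 4 wild type E11.5 samples and 300 at E17.5, a depth-scaled ratio of 46.5 (exact 95% counting interval 21.1 to 128). Its levels at E17.5 were 1.46, 5.34, 4.28 and 3.83 TPM, lowest in replicate 1. Col19a1, a fibril-associated collagen known from interneurons, had 4 reads and then 204, a ratio of 47.4 (18.2 to 176). Col6a5, a type VI chain, had 7 and then 297, a ratio of 39.4 (18.9 to 98.9). In all 3 genes, every E17.5 sample was above every E11.5 sample, and each was called higher (edgeR adjusted p = 6.79e-06 for Col28a1, 3.20e-05 for Col19a1 and 5.96e-05 for Col6a5). With so few E11.5 reads, they passed the filter on low counts only through their E17.5 samples. A call in the other direction was hardly possible, so these calls add no support to the read counts. Col6a4, another type VI chain, was called higher by 3.5 ± 0.44 (edgeR adjusted p = 7.67e-05). It had 39 reads over the 4 wild type E11.5 samples, so the same limit applies. The widely made type VI chains Col6a1, Col6a2 and Col6a3 were not called, at log2 changes of -0.05, -0.16 and 0.37. Without replicate 1, Col6a1 and Col6a2 were called lower, by -0.41 and -0.49 (edgeR adjusted p = 0.0250 and 0.00800), and Col6a3 was not called, at 0.16. In hs754-humanized samples Col6a1 and Col6a2 were also called lower, by -0.66 and -0.89.

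Col25a1 and Col8a1 rose from low levels. Col25a1 (chr3:129925150-130393532, plus strand) was at 6.32, 3.38, 7.001 and 5.80 TPM at E11.5 and at 11.2, 43.4, 35.1 and 37.0 TPM at E17.5. All later samples were higher, with replicate 1 the nearest to E11.5, and the log2 change was 2.52 ± 0.36 (edgeR adjusted p = 1.59e-04). Col8a1 (chr16:57444621-57575100, minus strand) was at 2.81, 1.27, 3.42 and 2.17 TPM and then at 4.76, 18.0, 10.97 and 17.3 TPM. The stages did not overlap, replicate 1 was again the lowest at E17.5, and the log2 change was 2.43 ± 0.40 (edgeR adjusted p = 4.37e-04). Its partner chain Col8a2 went the other way, from 19.6, 23.6, 13.3 and 15.1 TPM to 8.97, 7.75, 4.48 and 6.77 TPM, a change of -1.28 ± 0.29 (edgeR adjusted p = 0.00386). Col14a1 and Col16a1, both fibril-associated, were higher by 1.18 and 0.74. The transmembrane gene Col23a1, the fibril-associated Col22a1 and the anchoring fibril gene Col7a1 were lower by log2 changes of -1.28, -1.16 and -1.05. Col10a1, a cartilage collagen, did not pass the filter, with 6 reads at E11.5 and 11 at E17.5 over 4 samples each. Only 42.1% of its reads lay on its own strand.

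The same contrast in hs754-humanized embryos used none of the wild type samples. Of 43 collagen genes tested there, 16 were higher, 19 were lower and 8 were not called, where 77.7% of all 18781 genes tested were called, 38.2% higher and 39.5% lower. Fibrillar genes had a median log2 change of -1.73, with 7 of 11 lower and 2 higher. Basement membrane genes had 2 higher and 3 lower of 8, with a median of -0.16, and the other class 12 higher and 9 lower of 24, with a median of 0.40. The stages did not overlap for 31 of the 43 genes, 12 higher and 19 lower, where 71.8% of all genes did not (34.4% higher and 37.4% lower). DESeq2 called 34, where it called 57.5% of 28949 genes, again a wider set than that of edgeR. The sign was the same in both genotypes for 41 of the 42 genes tested in both. There were 11 genes called higher in both and 13 called lower in both, 0 were called in opposite directions, and Col5a3 alone was called in wild type but not in hs754-humanized samples.

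In hs754-humanized embryos Col18a1 was at 204, 179, 229 and 164 TPM at E11.5 and at 20.1, 20.8, 23.3 and 15.9 TPM at E17.5. The stages were separated by a wide gap, and the log2 change was -3.36 ± 0.15 (n = 4 per stage, edgeR adjusted p = 2.79e-09). Col2a1 changed by -2.81 ± 0.17, Col5a1 by -2.64 ± 0.13, Col1a1 by -2.54 ± 0.12 and Col3a1 by -2.35 ± 0.14. Col4a2 was at 284, 302, 312 and 256 TPM and then at 150, 134, 136 and 114 TPM. The stages did not overlap in this genotype, and Col4a2 was called lower, by -1.20 ± 0.11 (edgeR adjusted p = 1.15e-06), as was Col4a1, by -1.48 ± 0.11 (edgeR adjusted p = 1.66e-07). Col25a1 was at 2.69, 3.46, 2.97 and 5.25 TPM and then at 37.5, 47.4, 35.5 and 34.6 TPM. It was higher in every later sample, by 3.34 ± 0.21 (edgeR adjusted p = 3.81e-08). Col9a3 rose by 3.13 ± 0.21, Col8a1 by 2.79 ± 0.26 and Col9a2 by 2.08 ± 0.16. Col28a1 had 1 read at E11.5 and 319 at E17.5 over the 4 samples of each stage, a ratio of 374 with an exact 95% counting interval of 66.7 to 1.48e+04.

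**Figure D3:**
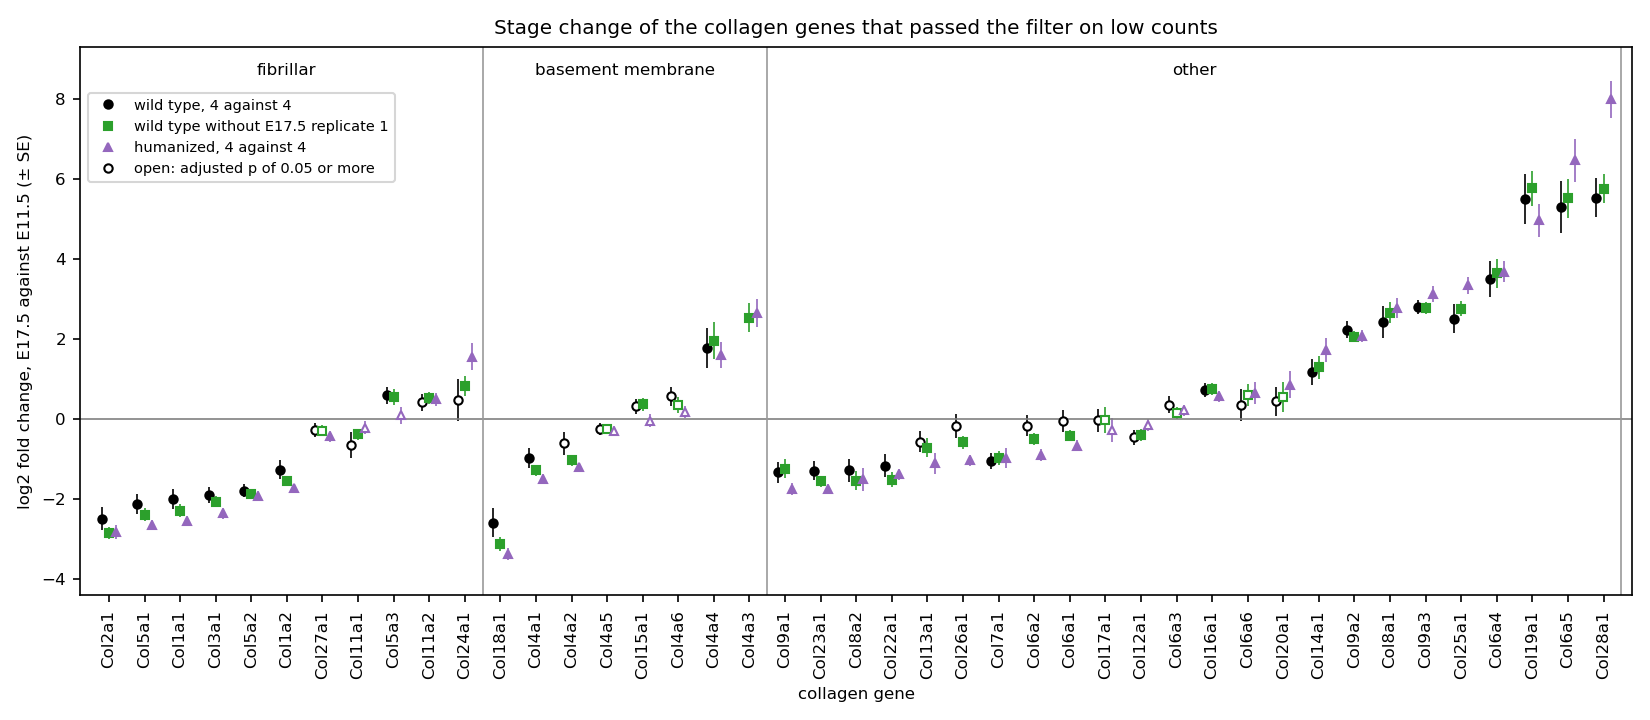
Log2 fold change ± SE between E17.5 and E11.5 for each collagen gene tested, in wild type (circles, n = 4 per stage), wild type without E17.5 replicate 1 (squares) and hs754-humanized samples (triangles, n = 4 per stage), ordered within each class by the humanized value; filled points had an adjusted p under 0.05 by edgeR. Col18a1, Col2a1 and Col5a1 were the most negative in both genotypes, and Col28a1, Col19a1 and Col6a5 the most positive.

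Summed levels of markers for cells that the dissected tissue could hold moved with some of these results. Markers of meningeal and mesenchymal cells (10 genes, among them Dcn, Lum and Foxc1) summed to 196 to 234 TPM at E11.5 and to 98.8 to 111 TPM at E17.5 in wild type. Of the 10, 5 were called lower and 3 higher, so the list did not move as one. Lum went from a mean of 54.0 to 7.12 TPM and Twist1 from 59.2 to 5.48 TPM. Dcn rose from 4.95 to 12.8 TPM, Slc6a13 from 2.44 to 20.8 TPM and Aldh1a2 from 1.54 to 19.5 TPM. Choroid plexus markers (5 genes, led by Ttr) summed to 12.4 to 21.0 TPM and then to 437 to 910 TPM, with 3 called higher and 0 lower. Ttr made up most of the later sum, with means of 1.19 and 655 TPM, whereas Folr1 had means of 3.95 and 3.00 TPM. Endothelial markers (10 genes) summed to 349 to 405 TPM at E11.5 and to 303 to 508 TPM at E17.5, with the highest sum in replicate 1. Of these 10, 2 were called higher and 1 lower. Markers of mural cells, the cells that wrap small vessels (8 genes), summed to 292 to 358 TPM and then to 291 to 333 TPM, and of 7 tested 3 were called higher and 2 lower. Among them, Rgs5 went from a mean of 9.10 to 128 TPM, and Notch3 from 102 to 22.4 TPM. Cartilage markers (5 genes) summed to 8.73 to 18.1 TPM at E11.5 and to 4.78 to 7.61 TPM at E17.5, with 1 of 3 tested genes called higher and 2 lower. Cnmd and Matn3 were the 2 lower genes (means of 11.96 and 4.52 TPM, and of 1.55 and 0.154 TPM), and Acan was the higher one (0.0825 and 0.720 TPM). Matn1, a defining marker, was at 0 in all wild type samples of E11.5 and at 0.287 to 0.842 TPM at E17.5. The part of these cells in the collagen results was not tested. Neural genes of the tissue (8 genes, among them Tubb3, Sox2 and Tcf7l2) summed to 4371 to 5195 TPM and to 4140 to 6574 TPM, and 2 were called higher and 2 lower. Nes went from a mean of 1461 to 80.2 TPM and Stmn2 from 355 to 1361 TPM. The highest E17.5 sum was that of replicate 1, where Tubb3 was at 3899 TPM against 1349 to 1570 TPM in the other 3 samples.

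Genes that build and handle collagen were counted beside the chains. Of 19 genes for collagen modification and export, 6 were lower and 2 higher in wild type at E17.5, with a median log2 change of -0.29, and 12 were lower and 3 higher in hs754-humanized samples. Serpinh1, the collagen chaperone of the endoplasmic reticulum, changed by -1.69 and by -2.56 in these genotypes. Of 12 tested genes for processing and crosslinking, 4 were lower and 3 higher in wild type, with Loxl2, a lysyl oxidase, at -3.17 and Adamts2, a procollagen peptidase, at 2.13. Of the 16 other basement membrane proteins, 10 were lower and 3 higher in wild type, with a median of -0.52. Lama1, a laminin chain of early basement membranes, changed by -2.08, and Hspg2 (perlecan) by -2.02, whereas the laminin chain gene Lama3 changed by 3.96. Of 10 collagen receptors, 3 were lower and 1 higher, including Ddr1, a receptor kinase, at -1.70 and Itga1, an integrin chain, at 1.27. Of 6 tested metalloproteinases and their inhibitors, 3 were higher and 1 lower, with Mmp9 at 3.47 and Mmp2 at -1.30. Read against the backgrounds of 29.0% higher and 26.7% lower in wild type, and of 38.2% and 39.5% in hs754-humanized samples, the counts of these short lists are descriptions.

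The genotype comparisons asked whether replacing hs754 was accompanied by a difference in collagen RNA. No collagen gene was called at either stage. At E11.5, edgeR called 0 of 38 collagen genes and 0 of all 17816 genes tested (0%), with 1058 genes and 4 collagen genes at an unadjusted p under 0.05, and DESeq2 called 2 genes of 34408 (0.00581%), neither of them a collagen gene. The 4 were Col12a1 at a log2 difference (humanized minus wild type) of -0.40 ± 0.14, Col25a1 at -0.59 ± 0.25, Col9a3 at -0.51 ± 0.21 and Col11a1 at -0.21 ± 0.09 (edgeR adjusted p = 0.577 for each). Col12a1, a fibril-associated collagen, was at 19.0, 13.8, 14.5 and 12.8 TPM in wild type and at 12.4, 11.53, 9.89 and 10.3 TPM in hs754-humanized samples. The samples did not overlap in TPM, but they did in the normalized counts of the test. By those counts Col11a1, lower in hs754-humanized samples, was the 1 collagen gene of 38 whose groups did not overlap, where 2.47% of all genes did not (1.34% higher and 1.13% lower).

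At E17.5, edgeR called 0 of 43 collagen genes and 0 of 18763 genes (0%), with 207 genes and 3 collagen genes at an unadjusted p under 0.05, and DESeq2 called 1 gene of 37247 (0.00268%), again not a collagen gene. The smallest unadjusted p was that of Col6a2, a type VI chain. Its levels were 24.7, 15.4, 15.5 and 14.1 TPM in wild type and 13.3, 13.7, 13.6 and 8.79 TPM in hs754-humanized samples. The groups did not overlap, which held for this collagen gene alone and for 1.24% of all genes (0.437% higher and 0.799% lower). Wild type replicate 1 was the highest, and humanized replicate 4 was the lowest. The log2 difference was -0.62 ± 0.27 (edgeR adjusted p = 0.808) and -0.30 without wild type replicate 1. Col6a1, Col1a1 and Col26a1 followed, with differences of -0.62, -0.55 and -0.59, which became -0.26, -0.26 and -0.19 without that library. In simulated counts, known changes were given to genes drawn at random from all those tested. This comparison recovered 10.4% of 2-fold changes and 81.8% of 4-fold changes, against 67.2% and 95.5% at E11.5. A 2-fold difference at E17.5 would thus usually have gone uncalled in such genes, and recovery among collagen genes was not measured separately. The test of the interaction, whether the stage change differed between genotypes, called 0 of 43 collagen genes and 0 of 20234 genes by edgeR and 0 genes by DESeq2. There, 1610 genes and 3 collagen genes (Col26a1, Col28a1 and Col6a2) had an unadjusted p under 0.05, and the smallest adjusted p of a collagen gene was 0.462.

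**Figure D4:**
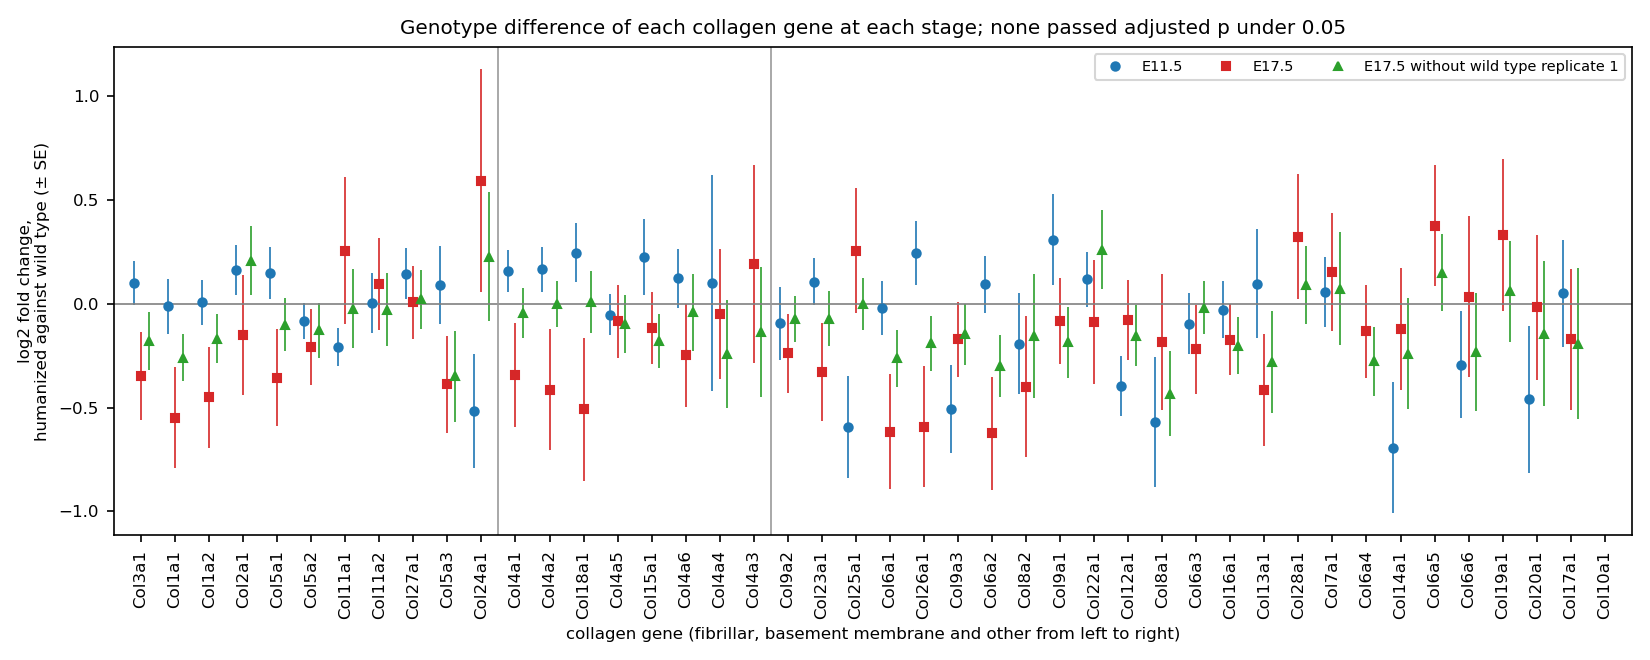
Log2 difference ± SE between hs754-humanized and wild type for each collagen gene tested at E11.5 (circles), at E17.5 (squares; n = 4 per genotype and stage) and at E17.5 without wild type replicate 1 (triangles), by edgeR. None of the points had an adjusted p under 0.05, and the lowest E17.5 value with all samples was that of Col6a2, at -0.62.

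Promoter chromatin was then read from the wild type peak lists, which had been called in each replicate separately, 2 per mark for the earlier stage and 3 for the later. H3K4me3 marks the start sites of active or poised genes, H3K27ac those of active promoters and enhancers, and H3K27me3 is laid down by Polycomb complexes at silent or poised genes. CTCF is a DNA-binding factor of chromatin loops. A promoter was taken as 1 kb to each side of the 5′ end of the gene, and it counted as marked when every wild type list of the stage had a peak there. H3K4me3 was found at 32 of 44 collagen promoters at E11.5 (60.5% of all 21618 protein-coding promoters) and at 29 at E17.5 (60.7%).

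H3K27me3 was frequent and H3K27ac was infrequent at collagen promoters, beside all promoters. H3K27me3 was found at 26 of the 44 (59.1%) at E11.5 and at 31 (70.5%) at E17.5, against 18.8% of all promoters at each stage. The wild type H3K27me3 lists held 13850 to 19166 peaks at E11.5 and 27452 to 43700 at E17.5, and the difference between the stages was not tested. H3K27ac was found at 8 (18.2%) at E11.5 and 16 (36.4%) at E17.5, against 44.9% and 54.5% of all promoters. The antibody lot for H3K27ac also binds acetylated H2B by the study's methods, which concerns every H3K27ac value here. CTCF was found at 11 (25.0%) at E17.5, against 32.3%, but at 18 (40.9%) within 2 kb, against 38.0%. The 2 genes of a type IV pair share most of their peaks and are not separate observations.

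The 5′ end of the gene lay apart from the start of its canonical transcript by 49390 bases in Col25a1, 52610 bases in Col18a1, 1431 bases in Col27a1 and 679 bases in Col1a2, and by less in the other genes. Around canonical starts in the wild type lists, H3K4me3 was found at 32 members in the earlier and 29 in the later tissue (63.7% and 63.8% of all promoters), H3K27ac at 8 and 19 (47.4% and 57.2%), H3K27me3 at 26 and 31 (19.4% and 19.2%), and CTCF at 12 in the later tissue (33.7%). In the hs754-humanized lists, with chromosome 13 left out of the background because its coordinates are shifted there, the counts were 32 and 29 for H3K4me3 (63.8% and 63.5%), 9 and 11 for H3K27ac (48.5% and 54.2%), 27 and 30 for H3K27me3 (21.6% and 17.9%) and 9 for CTCF (29.7%). The E17.5 lists of H3K27ac held 62720 to 77419 peaks in wild type and 47132 to 65181 in hs754-humanized samples, and the difference in counts between the genotypes was not tested. Both H3K4me3 and H3K27me3 were found at 24 members (54.5%) at E11.5 and at 27 (61.4%) at E17.5, where 17.7% and 16.4% of all promoters had both. Bulk tissue does not tell whether both marks lay in the same cells.

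**Figure D5:**
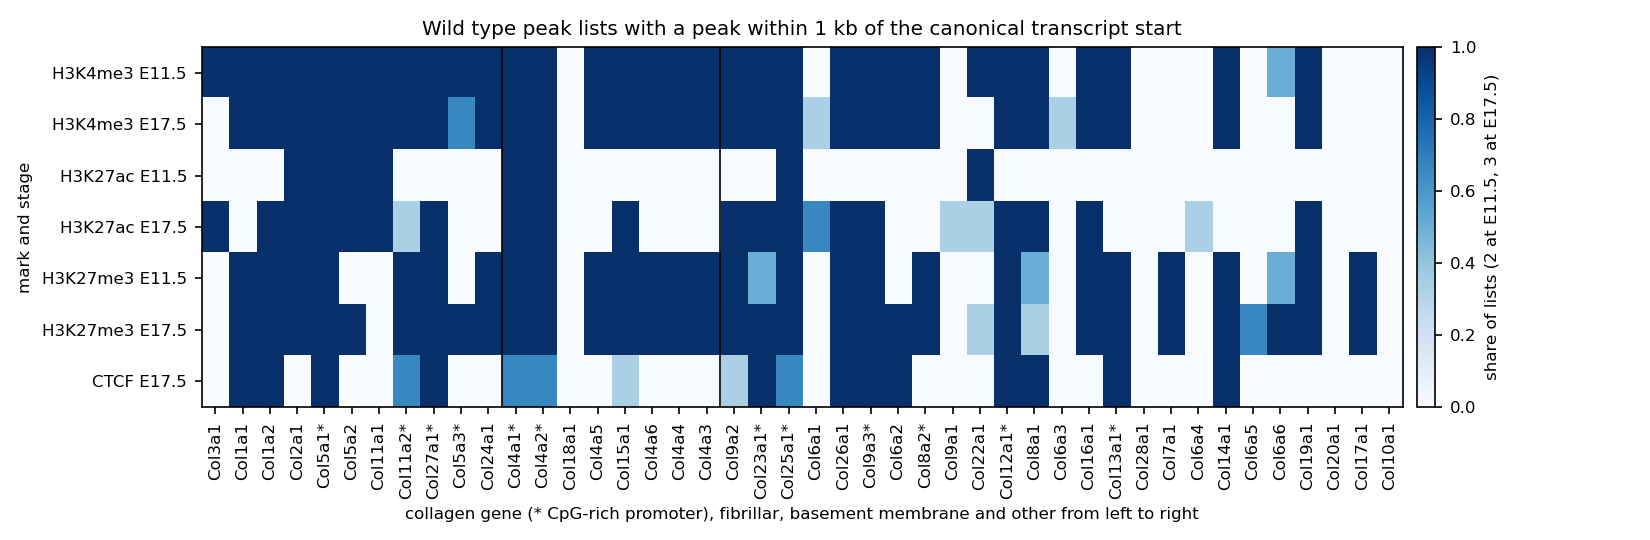
Share of wild type peak lists (white for none, dark blue for all) with a peak within 1 kb of the canonical start of each of the 44 collagen genes, for H3K4me3, H3K27ac and H3K27me3 at E11.5 (of 2 lists) and E17.5 (of 3 lists) and for CTCF at E17.5 (of 3 lists). H3K27me3 was in every list at 26 genes in E11.5 tissue and at 31 in E17.5 tissue, and H3K27ac in every list at 8 and 19. Col18a1 is blank here because its canonical start lay 52610 bases from its 5′ end, where peaks were found.

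H3K27ac and H3K27me3 around canonical starts were then set beside the direction of the RNA change in wild type. Of the 12 collagen genes higher at E17.5, 1 had H3K27ac in both E11.5 lists, where 50.5% of all protein-coding genes called higher did, and 6 had it in all E17.5 lists (79.4% of all genes called higher). Of the 13 lower genes, 5 had it in the E11.5 lists (81.0% of all genes called lower) and 7 in the E17.5 lists (83.5%). Col18a1, one of the lower genes, held no peak of any mark around its canonical start and counted as unmarked here. Around its 5′ end, H3K27ac was in both E11.5 lists, at 13.1 and 15.7, and in 1 E17.5 list, at 2.87. H3K4me3 and H3K27me3 were in every wild type list there. H3K27ac went from none of the E11.5 lists to all of the E17.5 lists at 12 canonical starts (27.3%), where 7.54% of all promoters did. The wild type H3K27ac lists were longer at E17.5, with 62720 to 77419 peaks against 32418 to 36150 at E11.5. Among promoters without H3K27ac in either E11.5 list, it was in all E17.5 lists at 12 of 36 collagen genes (33.3%) and at 15.4% of all genes. Of these, 5 belonged to genes called higher (Col8a1, Col9a2, Col9a3, Col16a1 and Col19a1), 3 to genes called lower (Col1a2, Col3a1 and Col23a1) and 4 to genes not called. Around the 5′ ends in wild type, Col1a2 had H3K27ac in 2 of the 3 E17.5 lists and Col27a1 in none. The rest of the 12 had it in all 3 lists there, and the share of all promoters with this change is given for canonical starts only. Around the 5′ ends, all 3 hs754-humanized E17.5 lists had H3K27ac at Col1a2, Col8a1, Col9a3, Col15a1, Col16a1 and Col26a1. It was in 2 of them at Col3a1, Col9a2, Col19a1 and Col23a1, in 1 at Col12a1 and, as in wild type, in none at Col27a1. Col23a1 had H3K27ac in both hs754-humanized E11.5 lists, at 5.03 and 3.2. H3K27me3 was found at E17.5 at 8 of the 12 higher, 9 of the 13 lower and 13 of the 17 tested genes not called, against 31.2%, 24.6% and 15.1% of all genes in these groups.

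Single promoters showed the range, given here as the fold enrichment of the peak over its background in each list. The Col8a1 promoter printed above had no H3K27ac peak at E11.5 and peaks of 12.1, 9.82 and 13.2 at E17.5. H3K4me3 was there at both stages, at 16.5 and 14.9 and then at 40.3, 39.3 and 30.4. At the canonical start of Col25a1, H3K27ac was 3.55 and 4.57 in the earlier lists and 9.90, 10.1 and 9.31 in the later ones. The Col25a1 start also held H3K27me3 in every list, at 3.09 and 4.12 and then at 3.52, 2.91 and 3.21. The CpG-dense Col5a1 promoter held all of H3K4me3, H3K27ac and H3K27me3 at both stages while its RNA fell, with H3K27me3 at 4.75 and 4.17 and then at 9.06, 7.78 and 8.03. Col1a1, whose RNA was among the most abundant, had no H3K27ac peak in any wild type list at either stage. It had H3K27me3 at 8.24 and 6.74 in the earlier lists and at 8.77, 7.05 and 7.39 in the later ones, and CTCF at 62.8, 29.7 and 55.6. Col3a1, without a CpG in its printed window, had H3K4me3 only at E11.5, at 4.26 and 4.74, and H3K27ac only at E17.5, at 4.2, 4.13 and 4.27. Col28a1 held no peak of a histone modification or of CTCF in any wild type list, although its RNA was called higher at E17.5. Fold enrichments of different libraries are not on a common scale, so changes in their size carry no test.

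CpG content was counted in the 300 bases from 250 before to 50 after each canonical start. A promoter was called CpG-rich where G and C made up 50% or more of the bases and CpG reached 0.6 or more of the number its base composition predicts. By this definition 12 of the 44 collagen promoters were CpG-rich (27.3%), beside 39.5% of all promoters. The 12 were Col4a1, Col4a2, Col5a1, Col5a3, Col8a2, Col9a3, Col11a2, Col12a1, Col13a1, Col23a1, Col25a1 and Col27a1. All 12 held H3K27me3 in every wild type E17.5 list, where 20.8% of all CpG-rich promoters did. Of the 32 other collagen promoters, 19 held it (59.4%), against 18.1% of all promoters that were not CpG-rich. Of 3 short motifs searched on both strands of the same windows, GGGCGG was in 52.3% of collagen promoters (42.6% of all), CCAAT in 38.6% (39.9%) and TATAAA in 18.2% (13.2%). These matches are letters in a window and say nothing of binding.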

How the data were processed

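RNA counts were deposited by the authors as reads per gene in each sample, without pooling, from STAR 2.7.9a on mm39 with the GENCODE release 31 basic annotation. The deposited column that ignores strand was used. Lines that name no gene were left out. Peaks had been called in each replicate with MACS2 2.2.7.1 after alignment with Bowtie2 2.4.2. The deposited lists hold a fold enrichment over local background, the −log10 of a p-value and of a q-value, and a whole-number score, all by MACS2 per the file layout. Broad peak settings for H3K27me3 are not given in the sources used here. The submitters' processing notes also name deepTools 3.5.1.

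Names, exons and positions came from GENCODE release 39 on GRCm39, which matched 98.8% of the gene identifiers. Each comparison was fitted with edgeR 4.0.16 (TMM, filterByExpr, two-sided quasi-likelihood test) on its own 8 samples, and the interaction on 16, with Benjamini-Hochberg adjustment over all genes tested. DESeq2 1.42.0 was the alternative, and the count tests were checked on simulated data. TPM used summed exon lengths over protein-coding genes. Other alternatives were size factors, no filter, the strand column, a replicate block, each sample left out, and other promoter windows and peak thresholds. The named genes were the 8 most abundant per stage in wild type, the 8 largest called changes in each direction, the 4 smallest p-values per genotype comparison and the type IV genes. Further members and list genes were named to fill out their classes. The members and lists were chosen with earlier results of these data known.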

Additional observations from a re-analysis of the deposited data

Results flagged for a closer look

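In 12 of 160 groups of 4 samples, the highest or lowest sample lay farther from the other 3 than Dixon's 95% critical value allows. Chance flags about 1 in 20 groups. Wild type E17.5 replicate 1 accounted for 4 of the 12. It was the highest sample for Col9a2 at 75.2 TPM (the others 61.7 to 62.3), for Col2a1 at 30 TPM (16 to 18), for Col6a2 at 24.7 TPM (14.1 to 15.5) and for Col26a1 at 37.3 TPM (18.4 to 21.2).

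Among hs754-humanized E17.5 samples, replicate 3 was the highest for Col2a1 at 27.5 TPM (17.3 to 18.1), and replicate 4 was the lowest for Col23a1 at 15.0 TPM (18.7 to 19.3) and for Col6a2 at 8.79 TPM (13.3 to 13.7). Among hs754-humanized E11.5 samples, replicate 4 had the lowest fibrillar sum at 1.18e+03 TPM (1.31e+03 to 1.33e+03), and replicate 2 the highest sum of pituitary markers at 6.44 TPM (4.77 to 4.85). Col28a1 was detected in replicate 3 alone at 0.0512 TPM (1 read) and Col6a5 in replicate 2 alone at 0.104 TPM (4 reads), with the others at 0. Where all other samples are at 0, any read is flagged, so these flags carry no information. In wild type E11.5, Col4a5 was at 23.5 TPM in replicate 4 and at 23.0 TPM in the others, a gap of small size.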

How the results depend on the processing

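Counts of collagen genes called between stages in wild type ranged from 24 to 36 when each sample was left out in turn (25 with all), 11 to 16 higher and 13 to 20 lower. Over all genes, the same omissions called 4.94e+03 to 6.97e+03 higher and 4.15e+03 to 7.03e+03 lower. Over all 16 alternatives the collagen count was 22 to 36, where 4.43e+03 to 8.22e+03 of all genes were called higher and 3.13e+03 to 7.03e+03 lower. The highest collagen counts came from leaving out E17.5 replicate 1, which called 20 lower against 13, and the cause was not tested. DESeq2 called 26 with all samples, where it called 43.6% of a wider set of 28168 genes. Its collagen count without that replicate, an alternative chosen after seeing the data, lay within the range of the alternatives. In hs754-humanized samples the collagen count was 35, 32 to 34 with a sample left out, and 27 to 35 over all 15 alternatives. Over those alternatives, 5.31e+03 to 9.36e+03 of all genes were called higher and 4.45e+03 to 8.21e+03 lower. With a sample left out there, 7.01e+03 to 7.62e+03 of all genes were called higher and 7.2e+03 to 7.52e+03 lower. Col6a1, not called in wild type at -0.05, changed sign to 0.07, 0.08, 0.03 and 0.10 without wild type E11.5 replicate 2 and E17.5 replicates 2, 3 and 4, and was called at -0.41 without E17.5 replicate 1. Of 797 recomputed values of named collagen genes, 784 kept direction and side of the threshold, 9 gained a call, 0 lost one and 4 reversed. No collagen gene was called between genotypes or for the interaction under the alternatives run.

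By the criterion that every pair correlate above 0.1, replicate numbers did not pair the samples. Correlations of deviations were 0.05, 0.15, 0.47 and 0.48 between genotypes at E17.5 and -0.45 to 0.29 in the other comparisons. With a replicate block, the collagen counts between stages lay within the ranges given above in both genotypes. No collagen gene was called between genotypes or for the interaction with that block. Requiring a −log10 q of at least 5 left H3K27me3 at 17 members at E11.5 (38.6%, beside 12.6% of all promoters), and at 26 otherwise (59.1%, beside 18.8%). CTCF was at 6 members within 500 bp (13.6%, beside 27% of all promoters), at 11 within 1 kb (25.0%, beside 32.3%) and at 18 within 2 kb (40.9%, beside 38.0%), so the collagen share was below that of all promoters in the narrower windows and above it in the widest. Starts of canonical transcripts were chosen after seeing the data. Around the 5′ ends of genes, the humanized lists gave H3K27ac at 9 and 10 members at the 2 stages and CTCF at 8 (9, 11 and 9 around canonical starts), and the same counts for the other marks. Genes with few reads, such as Col10a1, and changes of about 2-fold at E17.5 were limited by depth and by the spread between samples.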
